A study of Caenorhabditis elegans with 2 samples.

Results

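Genes of the splicing machinery were examined for UNC-86 occupancy at their promoters. UNC-86 belongs to the POU homeodomain family and specifies several classes of neurons in Caenorhabditis elegans. The genes were chosen by symbol alone: every protein-coding gene of the WBcel235 annotation named snr-, rsp-, prp-, sftb-, uaf-, rnp-, or hrp followed by a hyphen or a letter. The rule gave 52 genes of 19973 protein-coding genes. They comprised 7 snr, 8 rsp, 13 prp, 3 sftb, 2 uaf, 9 rnp and 10 hrp genes, here called splicing factor genes, and the rule uses no measured value, although it was proposed with earlier results of these data known. A symbol is not a function, and at least rnp-8, a partner of a germline poly(A) polymerase, is known for work other than splicing.

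The assay was chromatin immunoprecipitation with sequencing (ChIP-seq) on intact hermaphrodite worms of strain OP476, genotype unc-119(tm4063) III; wgIs476. This strain stably expresses UNC-86 with a C-terminal GFP-FLAG tag, and the sample descriptions name GFP as the target of the antibody, although the antibody field itself reads unc-86. All worms were L1 larvae taken 6 hours after synchronization, which was by bleaching and starvation, in 1 group of 2 biological replicates, so no conditions were compared and no untagged or input values were analysed here. The tagged protein came from a transgene, whose regulatory sequence none of the sources used here gives, and whole animals were used, so the lists do not show in which cells a site was bound.

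The spliceosome removes introns from pre-mRNA through small nuclear ribonucleoprotein particles (snRNPs) that recognise both ends of the intron and rearrange around it. Sm proteins form the ring on the snRNAs, PRP factors and the SF3b complex act during assembly and catalysis, and U2AF binds the end of the intron. SR proteins and hnRNP proteins bind the transcript itself and help decide which sites are used. Most of these genes are used in every tissue, and in worms many genes are also trans-spliced to a leader or lie in operons, so an annotated 5' end is often not the start of transcription.

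A peak was counted at a promoter when its summit fell in the window reaching 1500 bp upstream and 500 bp downstream of any annotated 5' transcript end of the gene. The deposited lists were an optimal list of 2987 peaks, which had passed the irreproducible discovery rate (IDR) procedure, a pooled list of 20768 peaks that includes background for that procedure, and relaxed lists of 29587 peaks for replicate 1 and 25172 for replicate 2. The signal is the authors' value for each peak and ranks peaks within a list only. In the optimal list it ran from 66.4 to 1708, with a median of 127. Read depth is unknown, since peak lists hold no read counts, and the intervals given for shares reflect only how many genes or peaks were counted.

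The sequences under the strongest splicing factor peaks show what the summits lay on. The windows below are 151 bp centred on the summit, on ce11 (WBcel235, RefSeq assembly), read 5' to 3' on the strand of the named gene. They are 8 of the strongest distinct peaks on chromosomes II to V with no annotated exon in the window. Capitals mark 3 strings on either strand: the GA repeat GAGAGA, the string ATGCAT, which lies within the element AATGCAT known to be bound by UNC-86 together with MEC-3, and the string CGCNCCAC. The GA repeat and the element were taken from earlier results of these data, and the last string was read off these windows after they were seen. The windows of rsp-6 and rsp-1 hold none of the 3.
prp-40, chrIII:9521823-9521973, plus strand: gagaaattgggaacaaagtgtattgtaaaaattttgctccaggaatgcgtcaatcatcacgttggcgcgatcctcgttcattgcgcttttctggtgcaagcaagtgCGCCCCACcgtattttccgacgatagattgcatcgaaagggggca
hrpu-2, chrIV:2177672-2177822, plus strand: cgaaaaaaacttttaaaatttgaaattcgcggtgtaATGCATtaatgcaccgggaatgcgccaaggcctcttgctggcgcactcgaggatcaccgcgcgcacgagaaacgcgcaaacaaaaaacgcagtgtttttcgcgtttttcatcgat
rnp-7, chrIII:7162437-7162587, minus strand: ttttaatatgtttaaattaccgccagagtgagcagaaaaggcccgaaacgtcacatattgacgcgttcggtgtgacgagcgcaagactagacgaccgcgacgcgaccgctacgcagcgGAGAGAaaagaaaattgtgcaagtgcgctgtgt
rsp-6, chrIV:7791329-7791479, minus strand: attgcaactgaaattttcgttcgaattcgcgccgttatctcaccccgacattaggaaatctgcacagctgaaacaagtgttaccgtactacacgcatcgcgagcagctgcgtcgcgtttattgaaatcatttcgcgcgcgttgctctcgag
rsp-1 and rsp-2, chrII:11453139-11453289, plus strand: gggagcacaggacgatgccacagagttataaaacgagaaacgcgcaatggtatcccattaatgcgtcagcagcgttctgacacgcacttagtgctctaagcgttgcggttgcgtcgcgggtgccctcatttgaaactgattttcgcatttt
prp-8, chrIII:8163977-8164127, plus strand: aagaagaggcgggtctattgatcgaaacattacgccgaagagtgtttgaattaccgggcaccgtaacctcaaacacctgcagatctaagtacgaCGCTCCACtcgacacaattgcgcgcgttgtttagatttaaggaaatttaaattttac
hrpf-2, chrIV:6376669-6376819, minus strand: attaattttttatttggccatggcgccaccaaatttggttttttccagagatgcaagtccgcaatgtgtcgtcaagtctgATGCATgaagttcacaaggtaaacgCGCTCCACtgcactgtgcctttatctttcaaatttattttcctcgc
snr-1, chrIV:17087579-17087729, plus strand: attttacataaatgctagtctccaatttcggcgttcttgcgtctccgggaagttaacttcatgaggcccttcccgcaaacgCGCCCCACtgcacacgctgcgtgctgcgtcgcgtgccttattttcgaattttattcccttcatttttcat

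More than 1 in 2 splicing factor genes carried an optimal UNC-86 peak at the promoter. Of the 52 genes, 30 had one (57.7%, exact 95% interval 43.2 to 71.3), against 13.1% of all protein-coding genes. Taken from each replicate's own 2987 strongest peaks, the count was 28 in replicate 1 and 29 in replicate 2, a mean of 54.8% ± 1.36 (SD, n = 2), while all protein-coding genes gave 13.0% ± 0.273 (SD, n = 2). The gap between the shares of splicing factor genes and of all genes was thus larger than the spread between replicates. That spread shows only how far the 2 rankings of peaks differ for the same genes. No test of the list was made, since its members were proposed with earlier results of these data in view. In the pooled list 42 of the 52 genes (80.8%, 67.5 to 90.4) had a promoter peak, against 41.8% of all protein-coding genes.

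**Figure D1:**
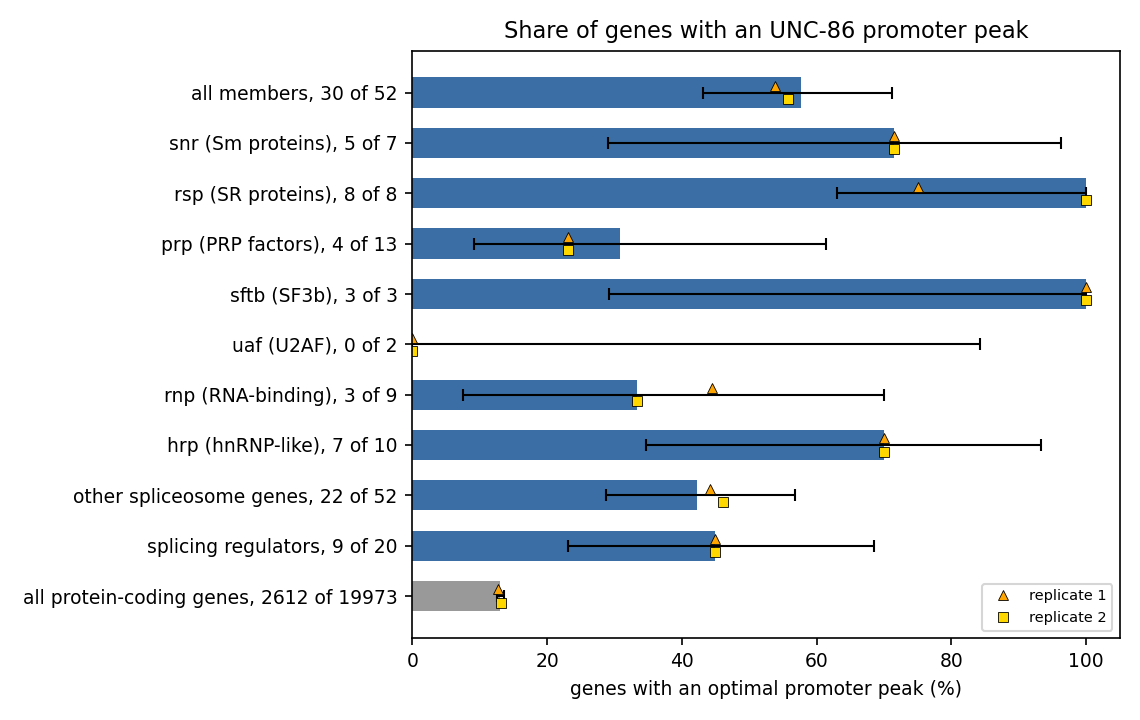
Share of genes with an optimal promoter peak, in percent, for all 52 splicing factor genes, for each family, for both lists of other splicing genes and for all protein-coding genes. Bars are the optimal list with exact 95% intervals, and triangles and squares are the shares from the strongest 2987 peaks of replicate 1 and replicate 2. The rsp and sftb bars reach 100%, the uaf bar is at 0, and the bar of all genes is at 13.1%.

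Counts by family ran from none to all of the genes. All 8 rsp genes and all 3 sftb genes had an optimal promoter peak, as did 5 of 7 snr genes (71.4%, 29.04 to 96.3) and 7 of 10 hrp genes (70%, 34.8 to 93.3). Fewer prp genes (4 of 13, 30.8%, 9.09 to 61.4) and rnp genes (3 of 9, 33.3%, 7.49 to 70.1) had one, and neither uaf gene did. With the window narrowed to 1000 bp upstream and 250 bp downstream, the count was 7 for rsp, 2 for sftb and 1 for rnp. It was unchanged for the other families. The exact intervals of these small families are wide and most overlap, from 63.1 to 100% for rsp and up to 84.2% for uaf. Those of rsp and prp (9.09 to 61.4%) did not overlap. The difference between families was not tested. The replicates gave the same count for snr, prp, sftb, uaf and hrp. For rsp they gave 6 and 8, and for rnp 4 and 3.

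Peaks at splicing factor genes were mostly strong without being among the very strongest. The 30 genes had a median signal of 208 at their strongest optimal promoter peak, with a range from 69.0 to 446, against a median of 147 over the 2612 protein-coding genes with one. Counting only the 250 strongest peaks, 1 member had a promoter peak (1.92%), against 1.41% of all genes. With the 1000 strongest, 17 had one (32.7%), against 5.44%, a ratio of 6.01. With the 5000 strongest pooled peaks, 34 had one (65.4%), against 18.1%, a ratio of 3.61. Among the depths examined this ratio was highest at 1000 peaks.

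**Figure D2:**
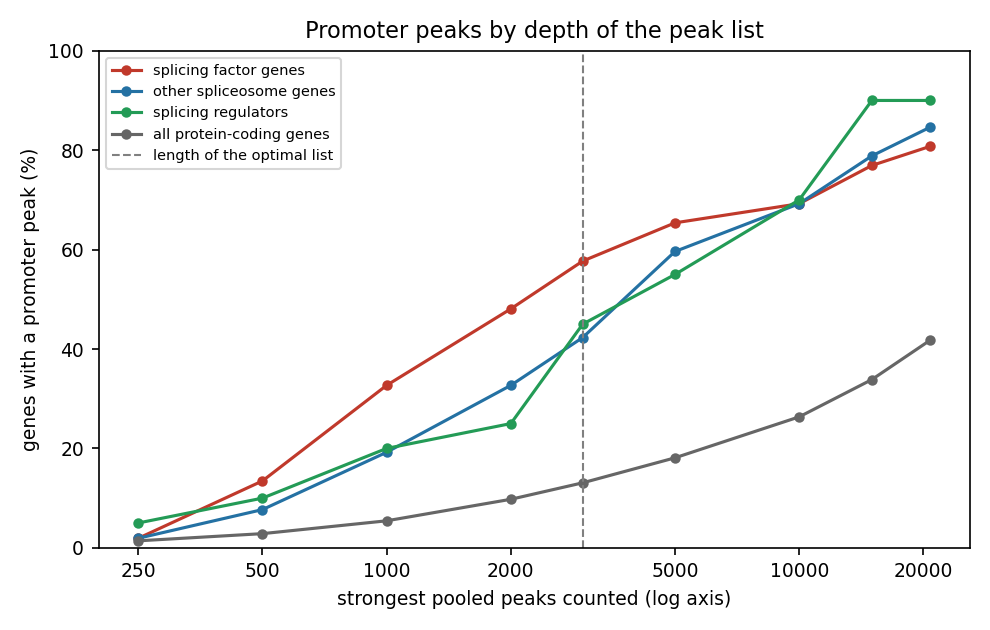
Share of genes with a promoter peak, in percent, as more of the strongest pooled peaks are counted (log axis, 250 to 20768 peaks), for splicing factor genes, other spliceosome genes, splicing regulators and all protein-coding genes, with a dashed line at the length of the optimal list. Splicing factor genes lie above all protein-coding genes at every depth plotted, with 32.7% against 5.44% at 1000 peaks and 80.8% against 41.8% over the whole pooled list.

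The Sm proteins, which form the ring of the spliceosomal snRNPs, gave the strongest peak of any member. It lay at snr-4 (WBGene00004917), the gene of the SmD2 protein, on chromosome V from 11978508 to 11979723, minus strand. The summit at 11980078, 355 bp upstream, had a signal of 446 in the optimal list and ranked 194. The peak had 217 in replicate 1 and 225 in replicate 2, and was among the 2987 strongest of both. No other protein-coding gene had its window over this summit, which fell within exonic sequence of C52E4.14, a non-coding gene. The nearest 5' end of any gene was that of T11F9.15, annotated as a small nuclear RNA gene, 40 bp from the summit. snr-1, for SmD3, had a signal of 218 with 88.5 in replicate 1 and 128 in replicate 2, and this summit lay closer to snx-13, 216 bp upstream of it, than to snr-1, 395 bp upstream. The other peaks were at snr-6, for SmE (147, 260 bp upstream), snr-2, for SmB (110, 360 bp upstream), and snr-3, for SmD1 (78.4, 240 bp upstream). The snr-2 summit lay closer to W08E3.4 (106 bp), and the snr-3 summit closer to rsp-5 (164 bp). The 5 summits thus all lay from 240 to 395 bp upstream of the gene. snr-5, for SmF, and snr-7, for SmG, had pooled peaks only. Their signals were 34.9 at snr-5 and 21.5 at snr-7, and no peak of replicate 2 overlapped the one at snr-7.

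Every SR protein gene had a peak, and 2 of these genes shared one. SR proteins bind exons and promote the use of nearby splice sites. rsp-6, whose product resembles human SRp20, had the highest signal, 270, with 115 in replicate 1 and 160 in replicate 2 (chromosome IV, summit 7791404, 175 bp upstream). rsp-1 and rsp-2 are divergent genes with 406 bp between their 5' ends, and both were counted for the same peak on chromosome II. It had a signal of 267, with 127 in replicate 1 and 140 in replicate 2, and its summit at 11453214 lay 148 bp upstream of rsp-1 and 259 bp upstream of rsp-2. In the same way rsp-5 and snr-3, with 403 bp between them, were counted for a single peak with a signal of 78.4, so the 30 genes rest on 28 peaks.

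The remaining SR protein genes covered a range of strengths and distances. rsp-3, the SF2/ASF gene, had a signal of 155, with 78.2 and 77.8 in replicates 1 and 2, and the summit lay 251 bp upstream of it and 145 bp upstream of the divergent gene spin-4. At rsp-4, the SC35 gene, the peak with a signal of 213 lay 1294 bp upstream and only 249 bp upstream of ndx-6. The peaks at rsp-7 (86.5, 289 bp upstream) and rsp-8, a Tra2-like gene (70.6, 592 bp upstream), stood low in the optimal list, and neither was in the strongest 2987 of replicate 1. At rsp-7 the signal was 17.5 in replicate 1 and 63.6 in replicate 2, the largest ratio between replicates at any member's optimal peak. The rsp-7 summit lay 20 bp from the 5' end of M28.13.

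PRP genes ranged from strong optimal peaks to none in the pooled list. prp-19, the gene of a ubiquitin ligase of the activated spliceosome, had a signal of 382 with 182 in replicate 1 and 199 in replicate 2 (chromosome III, summit 5172681). That summit lay 636 bp upstream of prp-19 and 39 bp upstream of the divergent gene K10D2.5. prp-40, for a protein associated with the U1 snRNP, had 324, with 143 in replicate 1 and 177 in replicate 2, and a summit at 9521898 on chromosome III, 177 bp upstream. At prp-8, whose product is the large core protein of the catalytic centre, the signal was 242, with 95.2 and 146 in replicates 1 and 2, and the summit lay 321 bp upstream. prp-18, for a factor of the second catalytic step, had the weakest optimal peak of any member (69.0, 48 bp upstream), outside the strongest 2987 of both replicates.

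The other 9 PRP genes had no optimal promoter peak. prp-31 (46.6), prp-21 (26.8) and prp-9 (25.3), of which the last 2 encode SF3a subunits, had pooled peaks. prp-3, prp-4, prp-6, prp-17, prp-38 and prp-39 had none in the pooled list. Of these 6, the relaxed lists held a promoter peak for prp-3 in replicate 1 and for prp-38 and prp-39 in replicate 2. Distances of the 4 optimal peaks ran from 636 to 48 bp upstream, with a median of 249 bp.

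All 3 sftb genes, which encode subunits of the SF3b complex that helps the U2 snRNP hold the branch site, had optimal peaks, and none had the nearest 5' end to the summit. sftb-2 had a signal of 188, with 87.7 in replicate 1 and 94.1 in replicate 2, at 1443 bp upstream, while W03F9.1 lay 76 bp from the summit. The divergent protein-coding gene W03F9.2, 202 bp upstream of sftb-2, lay between sftb-2 and this summit. sftb-1 had 171, with 85.0 and 84.1 in replicates 1 and 2, at 460 bp upstream, with R10E4.1 13 bp away. sftb-6 had 133, with 50.7 and 78.3, at 243 bp upstream, with luc-7L3 134 bp away. Both replicates ranked all 3 peaks among their strongest 2987. Of 3 other SF3b subunit genes, named here after their values were seen, none had an optimal promoter peak. teg-4 had a pooled peak with a signal of 46.95, and sap-49 and phf-5 had none in the pooled list.

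Neither subunit of U2AF, the factor that recognises the end of the intron, had an optimal promoter peak. uaf-2, for the small subunit, had a pooled peak with a signal of 47.7 at 46 bp upstream, with 18.9 in replicate 1 and 37.3 in replicate 2, which ranked 4217 in the pooled list. uaf-1, for the large subunit, had no promoter peak in the pooled list or in either relaxed list.

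Among the rnp genes, a mixed group of RNA-binding proteins, 3 had an optimal peak. rnp-7, for the U1 snRNP protein known in humans as the 70K protein, had a signal of 289, with 115 and 169 in replicates 1 and 2. Its summit at 7162512 on chromosome III lay 1357 bp upstream. That gene lies 4 bp behind syf-2 on the same strand, and the summit lay 397 bp upstream of syf-2 and 200 bp upstream of the divergent K04G7.1. rnp-6, the PUF60 gene, had 134 with 35.0 in replicate 1 and 97.2 in replicate 2, and its summit lay 151 bp upstream and 10 bp from rde-10. rnp-1 had 126 at 1156 bp upstream, where dpy-30 was nearer. Pooled peaks alone were found at rnp-9 (53.4), rnp-2 (51.5), rnp-5 (26.5) and rnp-8 (21.0). rnp-3 had no promoter peak in any list, and rnp-4, the gene of an exon junction complex protein, had one in the relaxed list of replicate 2 alone. The peak at rnp-9 had 36.1 in replicate 1 and 19.0 in replicate 2, and was in the strongest 2987 of replicate 1 alone.

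The hnRNP-like genes had the highest median signal of the families with more than 4 peaks, 265. The median of the 4 prp genes with a peak was higher, 283. The hnRNP-like genes had the shortest median distance of any family, 149 bp upstream. hrpu-2 had a signal of 320, with 162 in replicate 1 and 156 in replicate 2, at 149 bp upstream (chromosome IV, summit 2177747). hrpk-1 had 309, with 147 and 160 in replicates 1 and 2. Its summit at 6317869 on chromosome I lay 152 bp downstream of the 5' end, in an intron. hrpa-1, the gene of an hnRNP A-type protein, had 284, with 127 and 152, at 55 bp upstream (chromosome IV, summit 3338922). hrpr-1 had 265 with 143 in replicate 1 and 118 in replicate 2, at 537 bp upstream. The rest were hrpf-2 (219, 221 bp upstream), hrpu-1 (203, 120 bp downstream) and hrpf-1 (159, 907 bp upstream). Each replicate had all 7 among its strongest 2987 peaks. hrpl-1 (27.1) and hrpa-2 (26.7) had pooled peaks only, and hrpk-2 had none in any list.

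**Figure D3:**
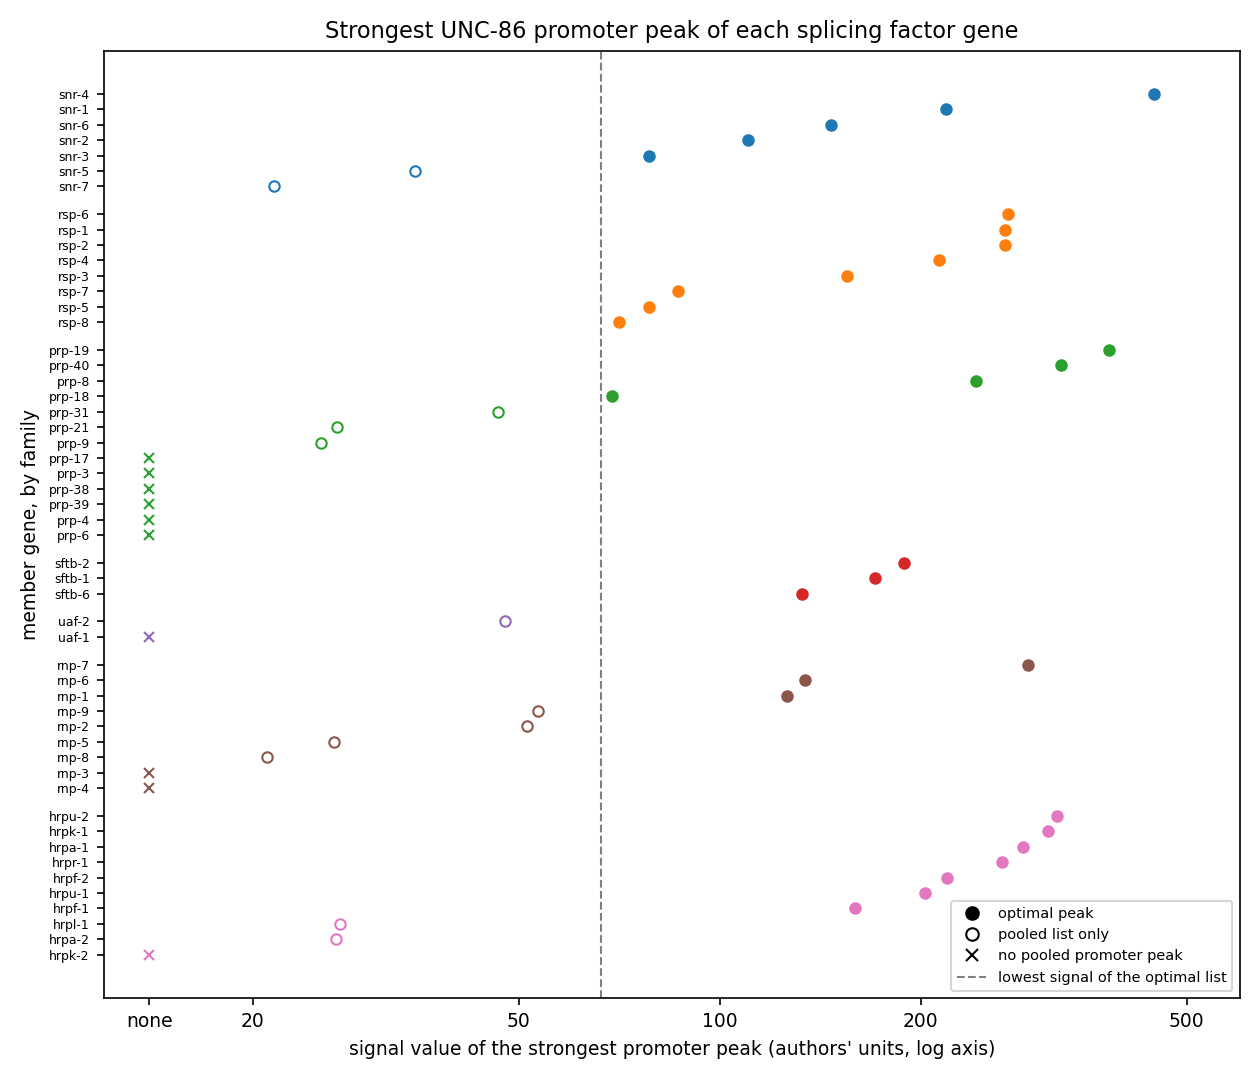
Signal value of the strongest promoter peak of each of the 52 genes (log axis), by family. Filled circles are optimal peaks, open circles peaks of the pooled list only, and crosses genes with no pooled promoter peak; the dashed line is the lowest signal of the optimal list, 66.4. snr-4 is highest at 446, and the 10 crosses include 6 prp genes.

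Few members lay close to the end of the optimal list. The last members inside it were rsp-8 (rank 2813, signal 70.6) and prp-18 (rank 2874, signal 69.0), and the first outside were rnp-9 (rank 3761, signal 53.4) and rnp-2 (rank 3910, signal 51.5). Extending the list to 3637 peaks, the length of the optimal list on the older ce10 build, therefore added no member, while the share of all genes was 15.02%.

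Both replicates held the members' peaks at similar strength. Of the 28 distinct peaks, 25 (89.3%) were among the strongest 2987 of both replicates, against 84.2% of all optimal peaks. The overlap of all 28 in both relaxed lists says little about members, since the IDR procedure chose the peaks from these replicates. The log2 ratio of replicate 2 over replicate 1 had a median of 0.18 and a SD of 0.47 over these peaks, against 0.34 and 0.42 over all optimal peaks. Spearman's rho between replicates was 0.889 over the 28 peaks and 0.859 over all optimal peaks, given as a description, since the IDR procedure chose the peaks from these replicates. By gene, 27 had a promoter peak among the strongest of both replicates and 3 in 1 replicate alone, namely rsp-7, rsp-8 and rnp-9.

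**Figure D4:**
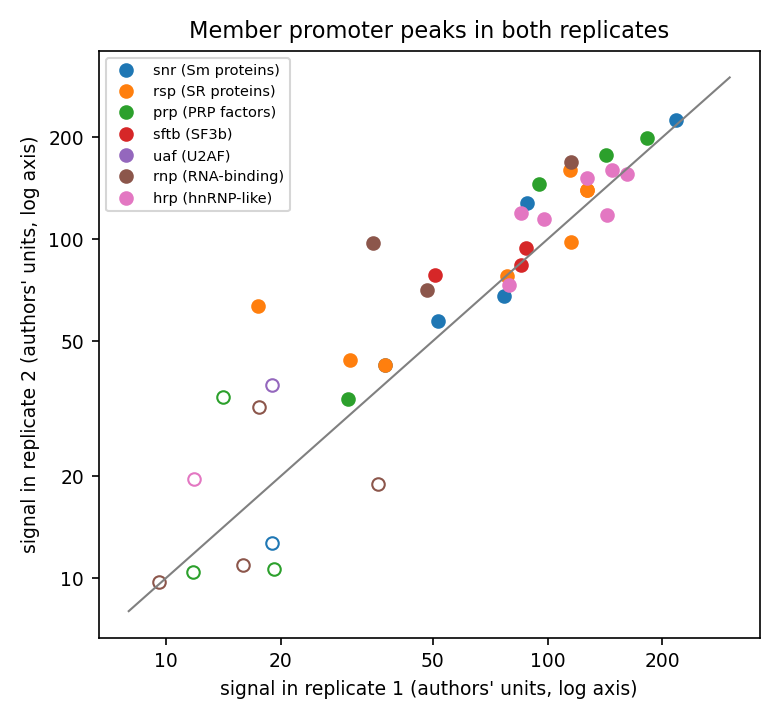
Signal in replicate 2 against replicate 1 for the strongest promoter peak of each member (both axes log), with the line of equal values. Filled circles are optimal peaks and open circles pooled peaks; colours are families, genes that share a peak share a point, and snr-7 and hrpl-1, with a peak in 1 replicate only, are not drawn. rsp-7 (17.5 in replicate 1, 63.6 in replicate 2) and rnp-6 (35.0 and 97.2) lie farthest above the line among filled points.

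Summits lay upstream and mostly within 500 bp. Over the 30 genes the median distance was 259.5 bp upstream, against 268 bp over all protein-coding genes with a peak. The summit was upstream for 28 of the 30 genes (93.3%, against 95.1%) and within 300 bp of the 5' end for 17 (56.7%, against 52.6%). By family the median was 355 bp for snr, 255 bp for rsp, 249 bp for prp, 460 bp for sftb, 1156 bp for rnp and 149 bp for hrp, all upstream. These values rest on 3 to 8 genes each.

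**Figure D5:**
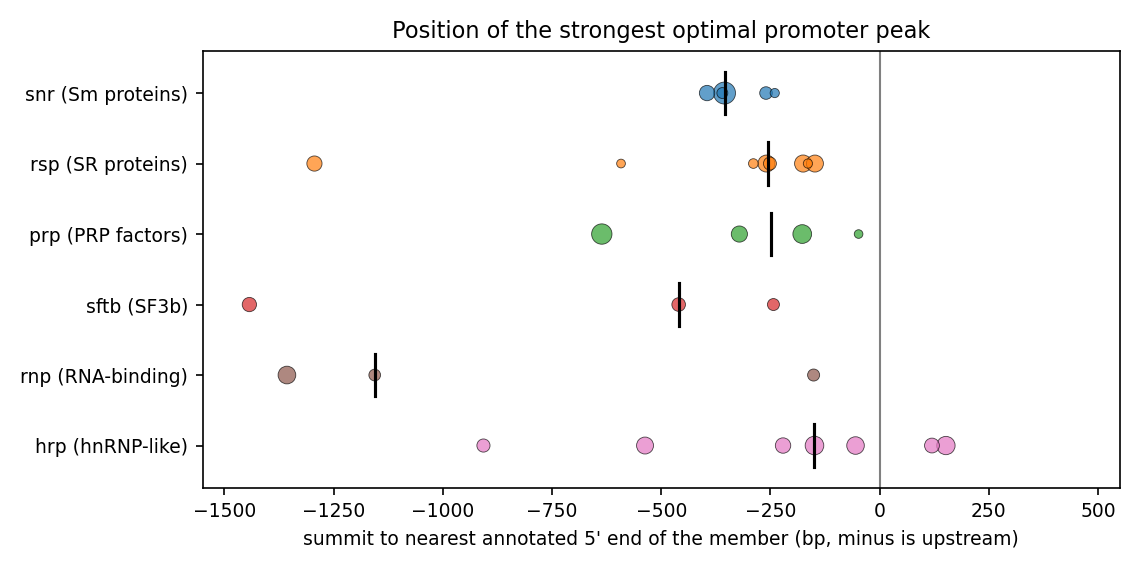
Distance in bp from the summit of the strongest optimal promoter peak to the nearest annotated 5' end of the member (0, minus is upstream), by family. Each circle is a gene, its area is proportional to the signal, and the bar is the median. The snr summits lie from 395 to 240 bp upstream, while rsp-4, sftb-2, rnp-7 and rnp-1 lie at least 1156 bp upstream.

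Many of these peaks were shared with another gene. For 23 of the 30 genes (76.7%) the summit also lay in the window of another protein-coding gene, against 58.8% of all protein-coding genes with a peak. The member's own 5' end was the nearest of any gene for 12 (40%, against 57.8%) and the nearest of a protein-coding gene for 16 (53.3%, against 69.1%). With each summit given only to its nearest 5' end, 12 of 52 splicing factor genes had a peak (23.1%), against 7.57% of all protein-coding genes. With 5' ends of protein-coding genes alone, an alternative chosen after the data were seen, 16 had one (30.8%), against 9.03%. The share of splicing factor genes thus stayed above that of all genes under both assignments, at a lower count. The 12 genes were 1 snr, 4 rsp, 3 prp and 4 hrp genes, and no sftb, uaf or rnp gene was among them.

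Neighbouring genes bear on these counts, since a summit between divergent genes counts for both. A protein-coding gene pointing the other way began within 2000 bp upstream of 32 members (61.5%), against 27.9% of all protein-coding genes. Among genes with such a neighbour, 20 of 32 members had an optimal peak (62.5%, 43.7 to 78.9), against 24.4% of all. Among those without one, 10 of 20 members did (50%, 27.2 to 72.8), against 8.69% of all. The share of genes with a divergent neighbour was thus higher among members, and the share of members with a peak lay above that of all genes in both classes.

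Tandem neighbours were examined because genes late in an operon can lack a promoter of their own. For 11 members another gene ended on the same strand within 500 bp upstream (21.2%, against 18.1% of all genes), and 5 of these had an optimal peak (45.5%, 16.8 to 76.6, against 10.3% of all such genes). At 3 of the 6 without one, the gene in front did carry an optimal peak at its promoter. These were plrg-1, 106 bp before prp-38 (signal 251), hmgs-1, 90 bp before prp-39 (signal 366), and smrd-1, 344 bp before prp-3 (signal 158). rnp-2, 72 bp before rnp-3, had only the pooled peak already given, with a signal of 51.5. Whether these pairs are transcribed together was not tested.

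GA repeats were found at a smaller share of splicing factor peaks than of all optimal peaks. At 4 of the 28 distinct peaks, GAGAGA occurred no more than 75 bp from the summit (14.3%, 4.03 to 32.7). These were the peaks of prp-18, rnp-7, hrpk-1 and hrpr-1. Over all optimal peaks the share was 36.3% (34.6 to 38.0), and over promoter peaks of protein-coding genes 33.6%. AATGCAT lay at 1 of the 28 (3.57%), the peak of hrpu-2, against 3.05% of all optimal peaks, and ATGCAT at 2 (7.14%), hrpu-2 and hrpf-2, against 5.16%. The POU octamer ATGCAAAT was at none of the 28, which allows up to 12.3%, against 1.24% of all, and TAATTA was at 1 (3.57%), sftb-2, against 4.52%. The E box CACGTG was at none, against 4.55% of all optimal peaks. The base composition of the windows was close, with a median of 46.03% G and C at member peaks and 45.03% at all optimal peaks.

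A GC-rich string recurred instead among the windows printed above. CGCNCCAC, on either strand, lay at 8 of the 28 peaks (28.6%, 13.2 to 48.7). The share was 4.12% of all optimal peaks and 5.10% of promoter peaks of protein-coding genes. The peaks belonged to snr-1, rsp-3, rsp-8, prp-8, prp-19, prp-40, rnp-6 and hrpf-2, in 5 families. Those of snr-1, prp-8, prp-40 and hrpf-2 are among the printed windows the string was read from, so its share was partly fixed in advance. The shorter GCGTC lay at 20 of the 28 (71.4%, 51.3 to 86.8), against 35.1%. All of these are from 11 strings, some of which contain others, that were read off the member windows after they were seen. Their shares thus describe these windows and were not tested. A string found in a window is not a site of binding.

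Among splicing genes outside the symbol rule, the share with an optimal peak lay between that of the members and that of all genes. In the pooled list their shares, 84.6% of other spliceosome genes and 90.0% of regulators, were above the members' 80.8%. Of 52 other genes of the spliceosome and its assembly, 22 had an optimal promoter peak (42.3%, 28.7 to 56.8), with a median signal of 147. The highest were mog-4, the gene of a DEAH helicase (585), acin-1 (327), rbm-25 (285) and cyn-10 (283). sfa-1, the gene of the branch site protein, was without a peak even in the pooled list, as were mog-1, another DEAH helicase, phf-5 and sart-3. The replicates gave 23 and 24 of the 52. Of 20 regulators of alternative splicing, 9 had one (45.0%, 23.1 to 68.5), the same count in each replicate. They were led by fust-1 (487), smu-1 (337), grld-1 (207) and asd-1 (195). sup-12, a muscle regulator, and sym-2 had no pooled peak, while exc-7, an ELAV-type regulator, and mec-8 had pooled peaks only, with 23.4 at exc-7 and 27.7 at mec-8.

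By chromosome, the splicing factor genes lay above all genes on every autosome. On chromosome I, 5 of 10 had a peak against 19.2% of its protein-coding genes, on II 7 of 10 against 11.7%, and on III 8 of 14 against 19.3%. On IV 7 of 10 had one against 12.5%, and on V 3 of 6 against 8.45%. On X neither of the 2 members, rnp-9 and hrpa-2, had an optimal peak, against 11.5% of genes there.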

How the data were processed

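ChIP-seq peaks of tagged UNC-86 were taken from the authors' deposited narrowPeak lists on ce11. Per the listing deposited beside the samples, replicate lists derive from a replicate's alignment and a control, the pooled list from both alignments, and the optimal list from these 3 lists by IDR. Signal values are as the authors deposited them, on an unstated scale. The sources used here name no aligner, caller or IDR threshold. All 2987 optimal peaks were the strongest of the pooled list. Summits came from the deposited offset and were set against the Ensembl release 115 annotation of WBcel235. No peak ended beyond a chromosome. Of the ce10 lists only the length of the optimal one (3637) was used.

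Shares have exact (Clopper-Pearson) 95% intervals. Replicates were compared through each one's own 2987 strongest peaks and by overlap of at least 1 bp with the optimal peak. Distances are to the nearest annotated 5' end of the gene. No test was made, as there were no conditions to compare and the gene list was proposed with earlier results in view. The members, gene lists and sequences were chosen with earlier results of these data known. Of 53 other spliceosome genes 52, and of 21 regulators 20, were found by symbol. By rule, the 10 strongest members are given in full, then up to 4 further members a family and those without an optimal peak, and of each other list the 4 strongest and up to 4 without a peak. The assignment of peaks to genes was checked on simulated peaks. The software was Python 3.11.15 with scipy 1.17.1, pandas 2.3.3, numpy 2.4.6 and, for plots, matplotlib 3.10.9. Alternatives changed the window, the overlap rule, the assignment, the 5' ends, the signal threshold and the list length, or left out a replicate.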

Additional observations from a re-analysis of the deposited data

How the results depend on the processing

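The count of members with an optimal promoter peak was 30. It was 26 with a window reaching 1000 bp upstream and 250 bp downstream, against 11.1% of all protein-coding genes. With signals above the median it was 23, against 7.71%. It stayed 30 with any overlap with the window (13.8% of all genes), outermost 5' ends (12.3%) and the list lengthened to that of ce10 (15.02%). With 1 replicate left out it was from 28 to 29, against 12.8% to 13.2%. It was 12 with each summit given to the nearest 5' end, against 7.57%. With the nearest protein-coding one, a choice made after the data were seen, it was 16, against 9.03%. The nearest 5' end also gave 13 other spliceosome genes and 5 regulators, and signals above the median gave 13 and 4. The median of the share of listed peaks that were weaker than a member peak, 74.7%, was 81.1% with the nearest 5' end, 56.1% among signals above the median, 77.4% at the ce10 length and from 72.8% to 74.6% with 1 replicate left out. At the main setting this median was 58.7% over all protein-coding genes with an optimal promoter peak. By family it ran from 53.5% for rnp to 83.8% for prp. The median distance was -247 bp with the narrower window, -169.5 bp with the nearest 5' end and from -276 to -262 bp with 1 replicate left out. The GAGAGA share was 7.14% within 30 bp of the summit, 12.5% with the narrower window, 16.7% with the nearest 5' end, 20% at the ce10 length and from 14.8% to 17.2% with 1 replicate left out. No GAGAGA share over all peaks was computed for these settings. The value within 30 bp cannot be set against the 36.3% of all optimal peaks within 75 bp. The pooled count ranged from 28 to 44, with no share of all genes computed for these alternatives. The cause of these shifts was not tested. No paired analysis was possible because there was 1 group. The control, the read depth and the signal scaling were not analysed here, and small families leave wide intervals.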
